A study of Mus musculus with 12 samples.

Results

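Mitochondria carry their own ribosome, which translates the few messenger RNAs encoded by mitochondrial DNA. Those messengers specify core subunits of the respiratory chain and of the ATP synthase. The ribosomal RNAs of this particle come from mitochondrial DNA, whereas its proteins are encoded in the nucleus, made in the cytosol and imported, so that building it draws on both genomes. Nerve cells depend heavily on oxidative phosphorylation, the process this ribosome supplies with subunits. The genes described here are the 78 rows of 52636 in the deposited expression tables whose symbol is Mrps or Mrpl followed by a number and at most 1 letter. Of these, 29 were Mrps genes, named for the small subunit, and 49 were Mrpl genes, named for the large subunit, and 5 pseudogene symbols ending in -ps were left out. The symbols do not follow the particle in every case: the proteins of Mrps18a and Mrps30 are known to sit in the large subunit.

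The hippocampi came from wild-type C57BL6/J mice aged 18 weeks, of both sexes, that the labels class as having a high or a low extinction level. The series design text ties this class to how amenable a mouse was to extinction of a learned fear, that is, to the loss of the fear response with training. There were 4 groups of 3 libraries each: high-extinction males, low-extinction males, high-extinction females and low-extinction females. The 12 titles name 12 different mice, and no treatment or genetic change separated the groups. Replicate numbers below follow the order of deposit and pair no mice. Changes are given as low minus high extinction on the log2 scale, so that a positive value means a higher level in low-extinction mice.

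The 12 libraries listed between 18170 and 19062 genes at 1 TPM or more (a level per transcript length within a library). The 3 low-extinction females, with 18878 to 19062, lay above all others, which had at most 18597, and the part of this in the female TPM changes was not tested. TPM keeps no record of depth, and the authors' deposited tables give mean normalized counts that ran from 12.3 to 2406 over the 78 genes in males and from 10.4 to 2443 in females. The 10 hippocampal neuron markers examined were at 1 TPM or more in every library. A list of genes called ribosomal RNA-derived here took between 5.82% and 16.1% of the TPM, with the highest share in high-extinction male replicate 1. Most of it was AY036118, with a mean of 86026 TPM. The name is loose, because the list also held Rn7sk, Rn7s1, Rn7s2, Lars2 and Gm10925, the last with a mean of 12639 TPM. The summed level of choroid plexus markers, which belong to a tissue beside the hippocampus, spanned 519 to 4336 TPM in high-extinction males, 152 to 1327 in low-extinction males, 142 to 1679 in high-extinction females and 242 to 1567 in low-extinction females. All 10 choroid plexus markers were found, and none was at 0 in any group. Ependymal markers summed to 49.3 to 61.4 TPM in high-extinction males and 14.6 to 34.4 in low-extinction males. Meningeal fibroblast markers summed to 112 to 133 TPM in high-extinction and 48.8 to 102 in low-extinction males, and to 91 to 94 in high-extinction and 110 to 128 in low-extinction females. Thalamus and habenula markers summed to 91.6 to 120 TPM in high-extinction and 136 to 150 in low-extinction females. The groups named in these last 3 sentences did not overlap. The part of these differences in the results below was not tested. In whole tissue, fewer cells of a type and less RNA per cell cannot be told apart.

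Every one of the 78 genes was expressed at 1 TPM or more in all 12 libraries. The gene means over the 12 libraries ran from 4.44 to 63 TPM, a 14.2-fold range, with a median of 26.3 TPM. This median lay above the mean level of 66.8% of the genes tested. The genes were close to each other in level, with 65 of 78 between 10 and 50 TPM, 5 above and 8 below. Small-subunit genes had a median of 27.4 TPM and large-subunit genes a median of 26.3 TPM.

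The highest level was that of Mrps21, the counterpart of bacterial ribosomal protein S21, at 60.9 ± 3.96 TPM in high-extinction males, 62.8 ± 9.64 in low-extinction males, 64.5 ± 5.54 in high-extinction females and 63.8 ± 1.35 in low-extinction females (SD, n = 3 in each group). The 4 group means of Mrps21 lay within the spread of the low-extinction males alone. After it came Mrpl41 at 58.9 TPM, Mrpl20 at 58.1, Mrps18a at 55.7 and Mrpl30 at 51.3, then Mrpl10 at 45.3, Mrps9 at 45.2, Mrpl24 at 44.7, Mrps26 at 44.4 and Mrpl38 at 43.5 TPM. The lowest levels were those of Mrpl23 at 4.44 TPM, Mrpl53 at 4.65, Mrpl17 at 6.13, Mrps36 at 7.02 and Mrps35 at 7.11. Mrps36 has since been assigned to the oxoglutarate dehydrogenase complex, a step of the citric acid cycle, rather than to the ribosome. The paralogs Mrps18a, Mrps18b and Mrps18c, which descend from 1 bacterial protein, differed in level, with mean TPM of 55.7, 14.3 and 29.4.

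**Figure D1:**
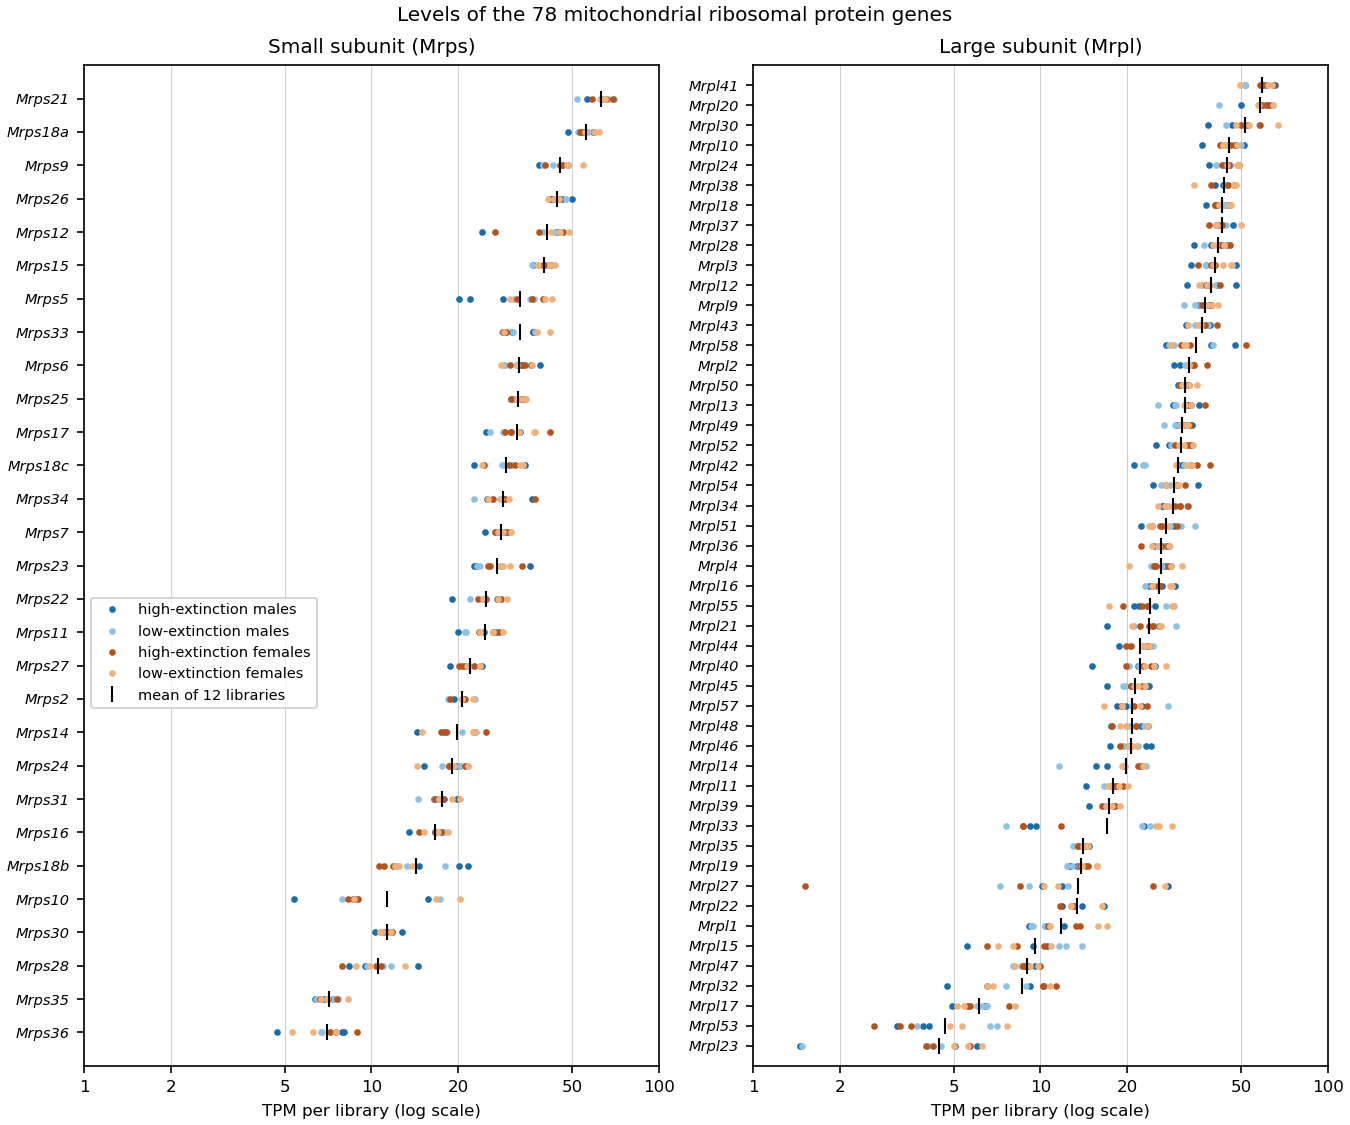
Level of each mitochondrial ribosomal protein gene in each of 12 libraries, in TPM on a log axis, with the small-subunit and large-subunit genes shown apart. Points are libraries, coloured by group, and a tick marks the mean over the 12 libraries. Both sets centre near the same level, with medians of 27.4 and 26.3 TPM, and the gene means span 4.44 to 63 TPM.

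All 78 genes were found in the GENCODE M21 annotation of GRCm38 as protein coding. They lay on 17 chromosomes, with none on the X chromosome, which holds 4.32% of protein-coding genes. Another protein-coding gene started on the opposite strand within 1000 bases of the start of 33 of 78 (42.3%), against 10.9% of 21951 protein-coding genes. Leaving out pairs whose ends overlap, so that the 2 genes point away from each other, the count was 18 of 78 (23.1%), against 6.79%. Mrps12 and Sars2, the mitochondrial seryl-tRNA synthetase, start 172 bases apart in opposite directions. Mrpl46 (chr7:78775236-78783531, minus strand) and Mrps11 (chr7:78783119-78792989, plus strand), 1 gene of each subunit, overlap head to head.

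The promoters were searched for letters bound by known regulators. NRF1 and the ETS-family factor GABP, also called NRF2, are activators of nuclear genes for mitochondrial proteins, and YY1 is a further regulator of them. Windows from 250 bases before to 50 bases after the start, from RefSeq on GRCm38.p6, were at hand for 69 of the 78 genes (75 windows). The NRF1 letters CGCNTGCGC, read on both strands, stood in 21.3% of these windows, against 8.58% of the windows of protein-coding genes. The ETS letters CCGGAAG stood in 34.7% against 11.6%, and the YY1 letters AAGATGGC in 16% against 3.05%. The SP letters GGGCGG differed less, at 52% against 46.2%, and the TATA letters TATAAA stood in 6.67% against 12.6%. Neither of the NRF1 and ETS motifs contains the other, and one or the other was found for 36 genes and both for 6. A match of letters is a description and says nothing of binding in this tissue. The stretches below are those of the 4 most highly expressed genes with NRF1 or ETS letters before the start, shown as examples of the motifs found in 48% of the windows of these genes. The motif is in capitals, each stretch is read 5′ to 3′ on the gene's strand, and the first capitals of Mrpl30 are the NRF1 letters on the other strand.
Mrps21, chr3:95871581-95871619, minus strand, 105 to 67 bases before the start: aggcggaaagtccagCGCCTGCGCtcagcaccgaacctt
Mrps18a, chr17:46110963-46110999, plus strand, 41 to 5 bases before the start: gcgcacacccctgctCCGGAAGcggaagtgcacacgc
Mrpl30, chr1:37890360-37890418, plus strand, 117 to 59 bases before the start: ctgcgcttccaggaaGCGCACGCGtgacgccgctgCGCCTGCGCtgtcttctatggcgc
Mrpl10, chr11:97041432-97041470, plus strand, 150 to 112 bases before the start: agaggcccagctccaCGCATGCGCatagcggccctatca

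Summed over the 78 genes, the level was 1840, 2153 and 2232 TPM in the 3 high-extinction males and 2018, 2086 and 2156 TPM in the 3 low-extinction males. In females it was 2170, 2104 and 2110 TPM at high extinction and 2166, 2153 and 2258 TPM at low extinction. The groups overlapped in both sexes, and the lowest sum belonged to high-extinction male replicate 1, the library with the largest ribosomal RNA-derived share. On TPM recomputed without ribosomal RNA-derived and mitochondrially encoded genes, that library stood at 2549 TPM and the others between 2729 and 2926. The large-subunit genes gave 1328 TPM of the sum on average and the small-subunit genes 793 TPM.

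**Figure D2:**
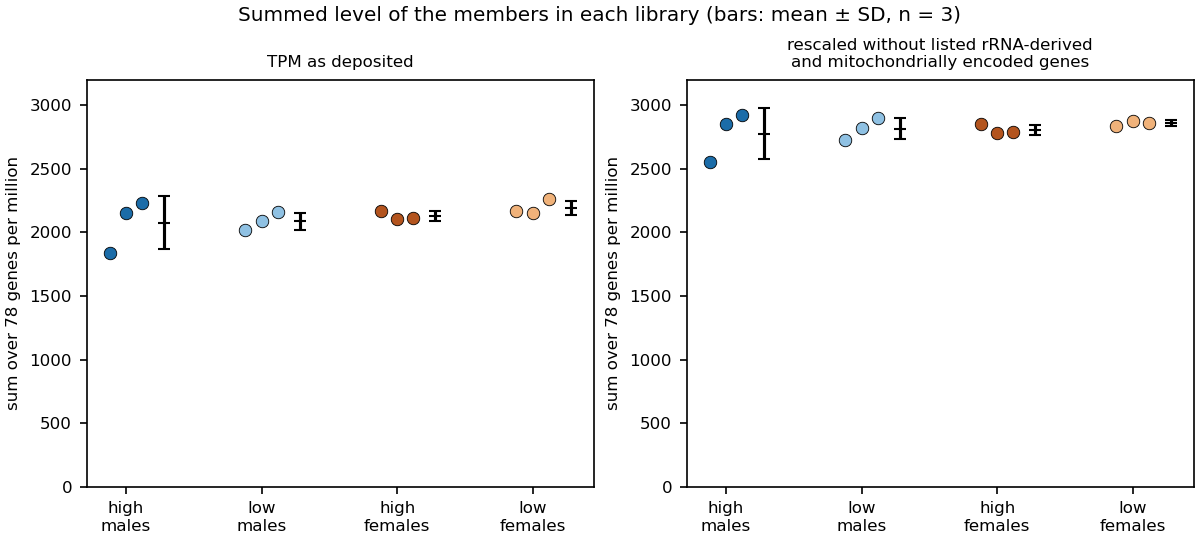
Summed TPM of the 78 genes in each of the 12 libraries, by sex and extinction level, as deposited (left) and recomputed without ribosomal RNA-derived and mitochondrially encoded genes (right), with points for mice and bars for the mean and SD (n = 3). The deposited sums lie between 1840 and 2258 TPM, and high-extinction and low-extinction mice overlap in both sexes and both panels.

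In males, no mitochondrial ribosomal protein gene was called as different between low and high extinction. The authors' deposited table for males rests on read counts and DESeq2. It gave an adjusted p for 77 of the 78 genes, all but Mrpl53, and called 0 at an adjusted p under 0.05. Over all genes with an adjusted p, 0.504% were called. A test of the TPM with limma also called 0 of 78, and 0% of all genes tested. In the authors' deposited table, 4 of 78 (5.13%) had an unadjusted p under 0.05, against 7.58% of all genes at 1 TPM or more, and limma on the TPM gave 4 of 78, against 6.29% of all genes tested. The median change over the 78 genes was 0.03 in the authors' deposited table, with 52 of 78 above 0 (66.7%), beside a median of -0.01 and 47.8% above 0 over all genes. On the TPM scale the median was 0.02 with 46 of 78 above 0, beside -0.02 over all genes, and without high-extinction male replicate 1 it was -0.05 with 22 of 78 above 0, beside -0.07 over all genes, so that its sign rested on that library. In that deposited table of the authors, 54 of the 78 genes had a 95% interval within a 1.25-fold change in either direction (69.2%, against 45.6% of all genes at 1 TPM or more) and 74 of 78 within 1.5-fold (94.9%, against 70.1%). By limma on the TPM, 25 of 78 had an interval within 1.25-fold (32.1%, against 29.7% of all genes tested). Within 1.5-fold there were 65 of 78 (83.3%, against 75.3%). Most genes tested had a lower mean level than the median of the 78, and genes of like level were not compared.

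Mrps6, a small-subunit protein, had the lowest value of the 78 in the authors' deposited table for males, at -0.23 with a standard error of 0.11 (DESeq2 adjusted p = 0.637). Its levels were 33.1, 36 and 38.6 TPM in high-extinction males and 29.1, 31.8 and 29 TPM in low-extinction males. The 2 sets of males did not overlap for Mrps6. The exons of Mrps6 share 464 bases on the same strand with Slc5a3, the myo-inositol transporter, and another annotated gene. Slc5a3 fell in low-extinction males in the authors' deposited table, by 0.60 on the log2 scale (standard error 0.11, DESeq2 adjusted p = 0.000249). The TPM of Slc5a3 were 13.8, 14.2 and 15.4 at high extinction and 11.3, 9.33 and 7.6 at low extinction in these males, and how counting divided reads between the 2 genes is not stated in the labels or tables used here.

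Mrps5, a protein of the decoding side of the small subunit, had 20.2, 22.1 and 28.8 TPM in high-extinction males and 35.5, 31.4 and 36.9 TPM in low-extinction males. The low-extinction males were all above the high-extinction males, and the change on the log2(TPM + 1) scale was 0.54 with a standard error of 0.14, which did not pass (limma adjusted p = 0.739). The authors' deposited table put the same gene at 0.01 with a standard error of 0.08. In males, 2 of 78 genes (2.56%), Mrpl15 and Mrps5, had all low-extinction mice above all high-extinction mice, against 4.2% of all genes tested. For 3 of 78 (3.85%), Mrpl35, Mrpl47 and Mrps6, all low-extinction mice were below, against 7.28% of all genes. Mrpl15 had 0.22 in the authors' deposited table (DESeq2 adjusted p = 0.607), and the smallest p among the 78 there was that of Mrps18c, at 0.32 (DESeq2 adjusted p = 0.521). Besides these 2 and Mrps6, Mrps16 was the remaining gene with an unadjusted p under 0.05 in the authors' deposited table, at 0.25 (DESeq2 adjusted p = 0.628). In the TPM of males, Mrpl51 at 0.30, Mrps18b at -0.35 and Mrpl13 at -0.19 were among the smallest p and did not pass in limma.

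In females, no gene of the 78 was called either. The authors' deposited table for females gave an adjusted p for 76 of 78, all but Mrpl53 and Mrps36. It called 0, against 0.857% of all genes with an adjusted p. Limma on the TPM called 0 of 78, against 0.0107% of all genes tested. In the authors' deposited table, 4 of 78 (5.13%) had an unadjusted p under 0.05, against 8.65% of all genes at 1 TPM or more, and limma on the TPM gave 4 of 78, against 8.83% of all genes tested. The median change was -0.04 in the authors' deposited table, with 22 of 78 above 0 (28.2%), beside a median of -0.01 and 46.2% above 0 over all genes. The 95% interval lay within a 1.25-fold change for 49 of 78 genes (62.8%, against 48.3% of all genes at 1 TPM or more) and within 1.5-fold for 76 of 78 (97.4%, against 72.3%) in the authors' deposited table. By limma on the TPM, 45 of 78 had an interval within 1.25-fold (57.7%, against 36% of all genes tested). Within 1.5-fold there were 66 of 78 (84.6%, against 76.2%). On the TPM scale the median over the 78 genes was 0.05 with 50 of 78 above 0 (64.1%), beside a median of 0.06 and 69.1% above 0 over all genes. With the libraries scaled by median of ratios the median was -0.02 with 26 of 78 above 0, beside 49.4% of all genes, so that the sign of the median depended on the scaling. In the authors' deposited table for females, the gene with the smallest p was Mrpl43 at -0.23 (DESeq2 adjusted p = 0.324), followed by Mrpl34 at -0.29 (DESeq2 adjusted p = 0.421). The other 2 genes with an unadjusted p under 0.05 in the authors' deposited table were Mrpl55 at -0.25 (DESeq2 adjusted p = 0.472) and Mrpl57 at -0.20 (DESeq2 adjusted p = 0.502).

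**Figure D3:**
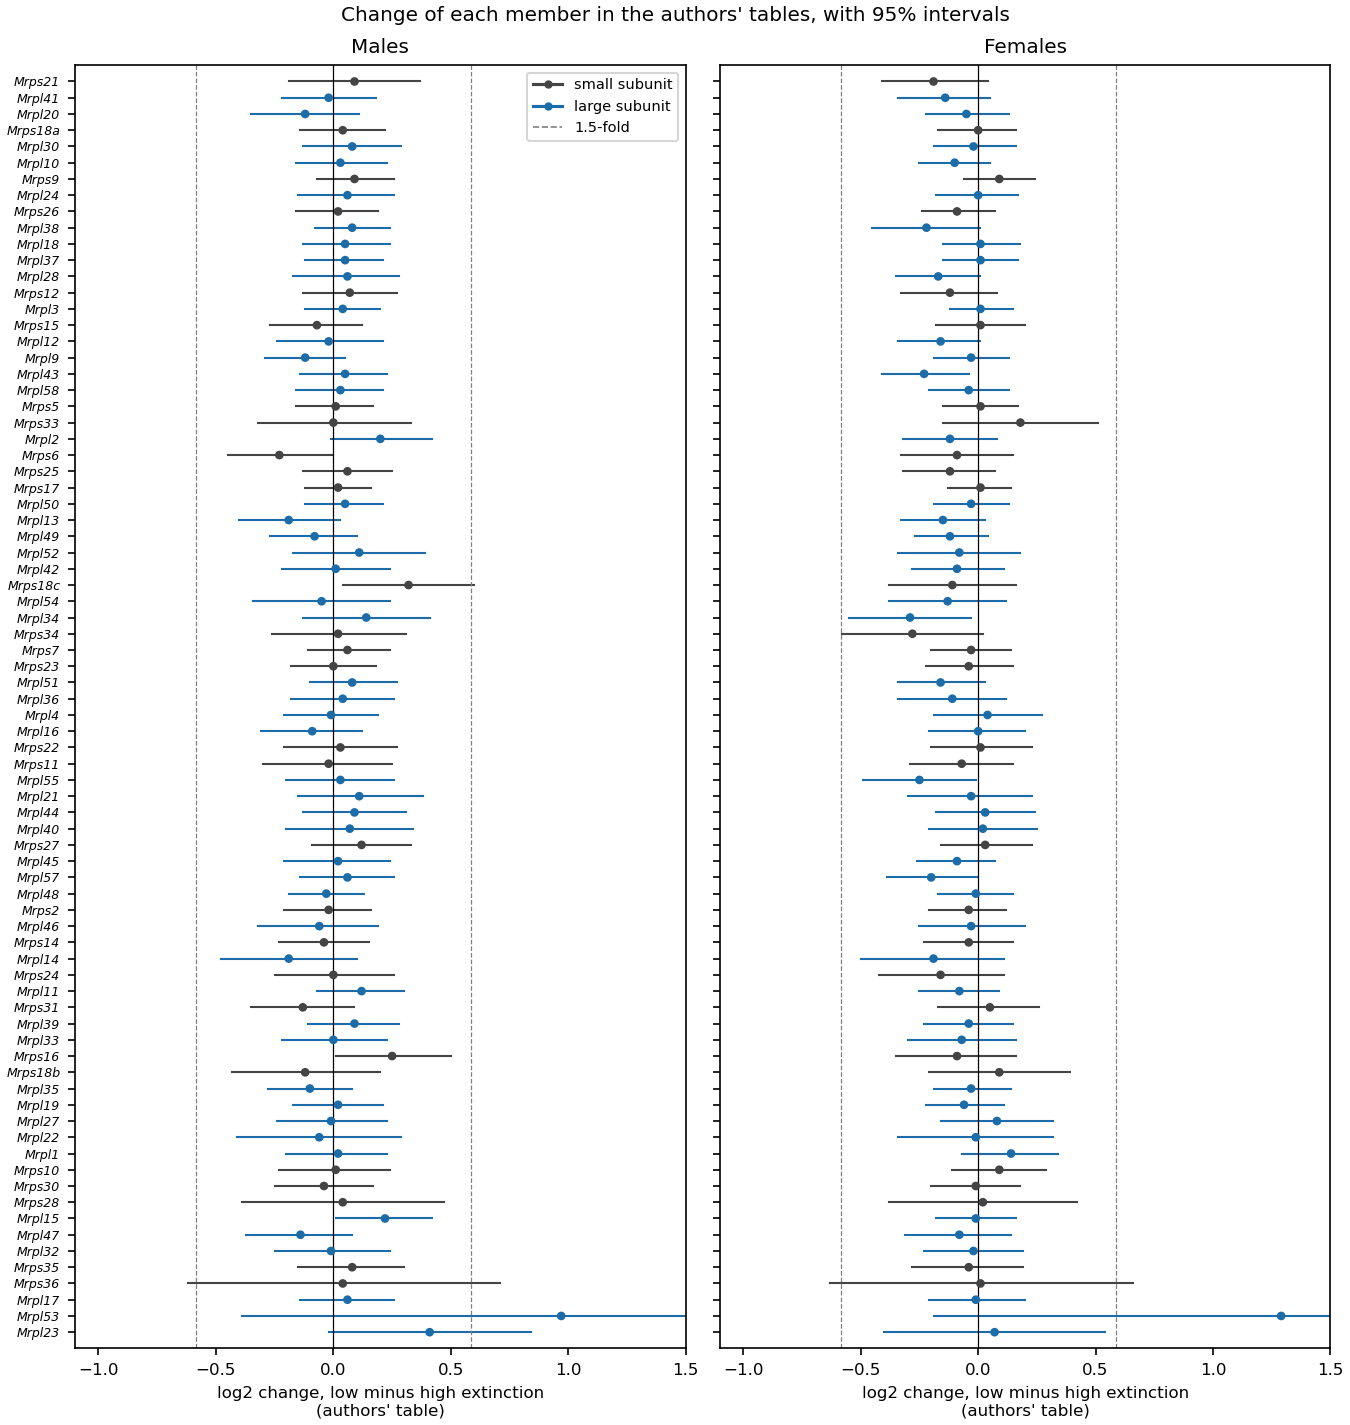
Change of each of the 78 genes, low minus high extinction in log2, with 95% intervals, from the authors' deposited tables for males and females. No gene had an adjusted p under 0.05, and the intervals of Mrpl53 run past the axis, to 2.34 in males and 2.78 in females.

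Mrpl33, a small protein of the large subunit, had the largest TPM change of the 78 in females. It was at 8.72, 11.8 and 8.68 TPM in high-extinction females and at 25.9, 28.8 and 25.3 TPM in low-extinction females. The 2 groups were far apart, by 1.38 on the log2(TPM + 1) scale with a standard error of 0.13 and a limma adjusted p of 0.0625. Mrpl33 passed without high-extinction female replicate 2 (limma adjusted p = 0.0085) and, by a narrow margin, under 3 other settings (limma adjusted p from 0.0439 to 0.0478). It did not pass under the other alternatives, where the limma adjusted p ran from 0.0707 to 0.41, the last from a joint fit over all 12 libraries. In males its level was 9.17, 23.0 and 9.68 TPM at high extinction and 22.6, 24.0 and 7.57 TPM at low extinction, so that both values occurred in both groups. The authors' deposited tables, from counts, put Mrpl33 at -0.07 with a standard error of 0.12 in females and at 0.00 with a standard error of 0.12 in males. The gene (chr5:31596935-31664384 in GRCm38, plus strand) has 11 annotated transcripts. All low-extinction females were above all high-extinction females for 4 of 78 (5.13%), namely Mrpl33, Mrpl53, Mrps18b and Mrps9, against 14.3% of all genes tested, and below for 2 of 78 (2.56%), Mrpl2 and Mrpl34, against 1.98%.

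Mrpl53, a large-subunit protein with the second lowest level, had higher mean TPM at low extinction in both sexes and passed in neither. Its TPM were 3.16, 3.9 and 4.08 in high-extinction males and 7.03, 3.71 and 6.66 in low-extinction males, and the 2 male groups overlapped. In females they were 2.63, 3.25 and 3.53 at high extinction and 4.84, 7.64 and 5.33 at low extinction, without overlap. The TPM change of Mrpl53 was 0.49 in males and 0.73 in females (limma adjusted p = 0.425 in females). In the authors' deposited tables it was 0.97 with a standard error of 0.70 in males and 1.29 with a standard error of 0.76 in females, at mean normalized counts of 12.3 and 10.4, with no adjusted p. Of the 790 exonic bases of Mrpl53, 695 are shared on the same strand with Gm42688, for which the authors' deposited tables give mean normalized counts of 94.3 and 93.5.

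With the sexes averaged, limma called 0 of 78 and 0% of all genes tested, and 3 of 78 (3.85%) had an unadjusted p under 0.05, against 7.7% of all genes. The smallest p belonged to Mrpl53, at 0.61 (limma adjusted p = 0.353), and Mrpl33 was at 0.85 (limma adjusted p = 0.479). Mrps5 was on the positive side as well, and Mrps6, Mrpl13 and Mrps34 were the 3 on the negative side with the smallest p, none of which passed. The median over the 78 genes was 0.02 for the average, as over all genes.

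The difference between the sexes, the male change minus the female change, was also called for 0 of 78 genes by limma, against 0.00541% of all genes tested, with 5 of 78 (6.41%) at an unadjusted p under 0.05, against 7.92% of all genes. Taken between the authors' deposited tables, the difference had no adjusted p for Mrpl53 and Mrps36. It was called for 0 of 78 genes, against 0.409% of all genes with an adjusted p. It had an unadjusted p under 0.05 for 5 of 78 (6.41%), against 6.81% of all genes. In the authors' deposited tables, 35 of 78 genes (44.9%) were above 0 in males and below 0 in females, against 23.8% of all genes, and 5 of 78 were the reverse. The male change exceeded the female change for 54 of 78 genes with a median difference of 0.06, beside 0.01 over all genes. Of the 78 difference intervals, 65 lay within 1.5-fold. For both counts no share over all genes was worked out. On the TPM scale the median difference over the 78 genes was -0.04, beside -0.09 over all genes. With median-of-ratios scaling it was 0.06, beside 0.00 over all genes. Its sign followed the scaling, while it lay above the median over all genes in both. Ranked by p in limma, Mrpl51 at 0.41 (adjusted p = 0.578), Mrpl32 at 0.76 (adjusted p = 0.604) and Mrpl34 at 0.29 (adjusted p = 0.604) led the positive side. Between the authors' deposited tables the difference was 0.24 for Mrpl51 and 0.43 for Mrpl34, but 0.01 for Mrpl32, with a standard error of 0.17. Mrps18b at -0.53 (limma adjusted p = 0.605), Mrps31 at -0.28 and Mrps33 at -0.39 had the smallest p on the negative side, where Mrpl27 at -1.52 and Mrpl33 at -1.06 were larger in size with a larger p. From the authors' deposited tables it was -0.21 for Mrps18b, -0.18 for Mrps31 and for Mrps33, -0.09 for Mrpl27 and 0.07 for Mrpl33.

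The TPM and the counts differed little in the size of most changes, which were themselves near 0. Their sign was the same for 62 of 78 genes in males and 48 of 78 in females, and the Pearson correlation across the 78 genes, which are not independent replicates, was 0.46 and 0.45. The gap between the TPM change and that in the authors' deposited tables was under 0.2 for 63 of 78 genes in males and for 69 of 78 in females. It was over 0.5 for 3 genes in males, Mrpl27, Mrpl23 and Mrps5, and for 4 in females, Mrpl33, Mrpl27, Mrps10 and Mrpl53. Mrpl27, the counterpart of a bacterial protein near the peptidyl transferase centre, ranged most widely. Its TPM were 11.9, 10.1 and 27.8 in high-extinction males, 9.13, 7.24 and 12.5 in low-extinction males, 8.47, 24.6 and 1.52 in high-extinction females and 27.1, 11.5 and 10.3 in low-extinction females. A single value far above the other 2 occurred in every group of Mrpl27 but the low-extinction males, the groups overlapped in both sexes, and the authors' deposited tables put its change at -0.01 in males and 0.08 in females. Mrps10, a protein of the small-subunit head, had 8.29, 8.8 and 8.96 TPM in high-extinction females and 20.3, 8.72 and 16.8 TPM in low-extinction females. The 2 groups overlapped because 1 low-extinction female was at the level of the high-extinction mice. Mrpl23 was at 5.06, 6.01 and 1.45 TPM in high-extinction males and 4.5, 1.48 and 4.07 TPM in low-extinction males, with 1 low value in each group.

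**Figure D4:**
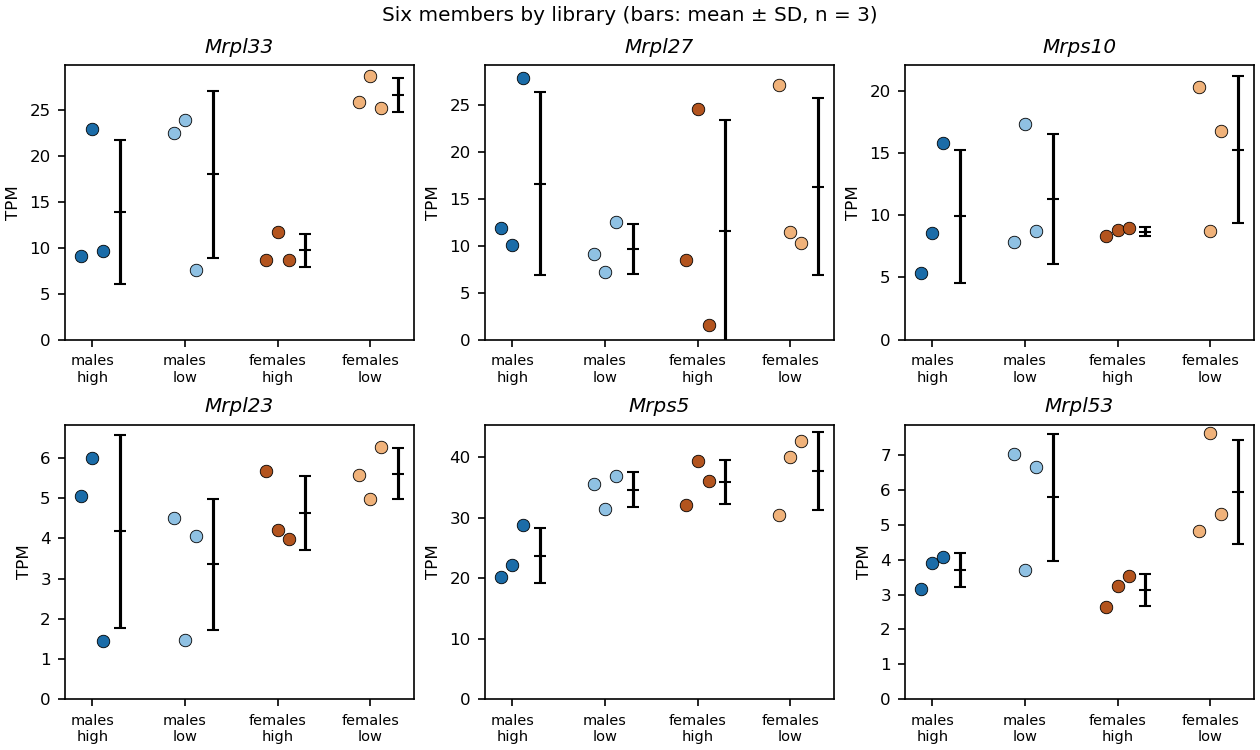
TPM in each library of the 6 genes whose TPM change and count-based change differ by over 0.5 in either sex, by sex and extinction level, with points for mice and bars for the mean and SD (a bar that would pass below 0 is cut there). Mrpl33 separates high from low extinction in females but not in males, whereas Mrpl27 and Mrps10 overlap in every comparison.

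**Figure D5:**
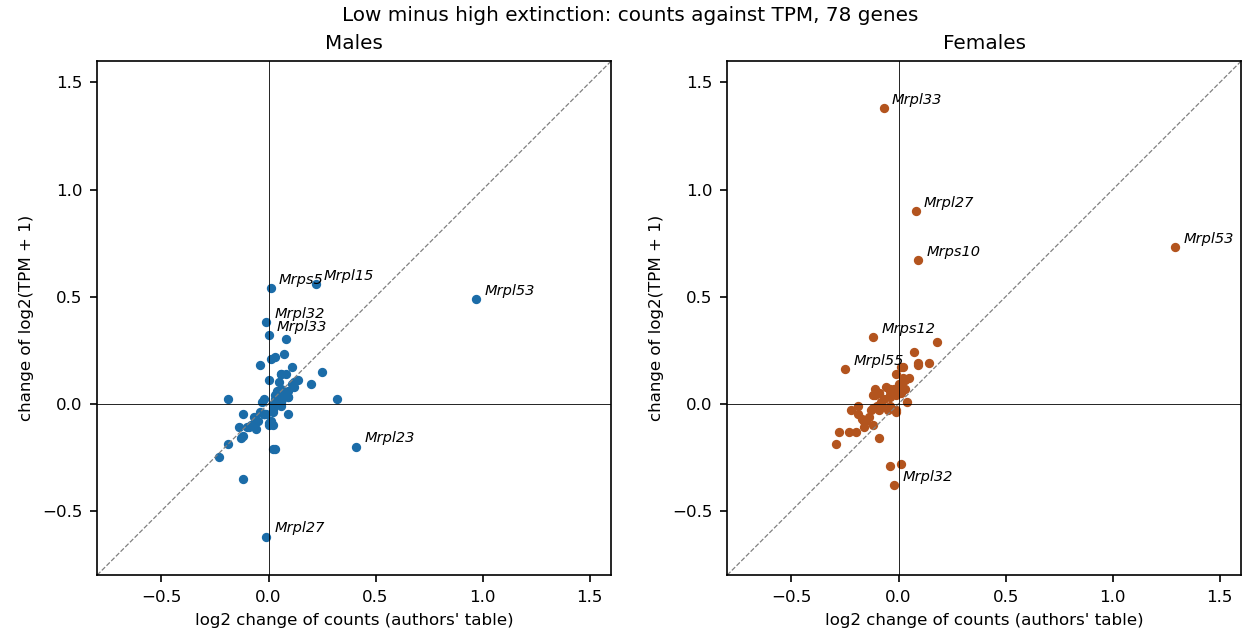
Change of each of the 78 genes from TPM (on the log2(TPM + 1) scale, by limma) against the change in the authors' deposited tables, low minus high extinction, in males and females. Most genes lie near the line of equal change, and Mrpl33 in females and Mrpl27 in both sexes lie off it.

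Around the group means, the genes had the same median SD as all genes tested. The SD of log2(TPM + 1) had a median of 0.15 over the 78 genes and of 0.15 over all genes tested, and 39 of the 78 were below the latter. Of the genes tested, 66.8% had a mean level below the median of the 78, and genes of like level were not compared. Mrpl35 had the smallest SD at 0.04, followed by Mrpl19, Mrpl2, Mrpl50 and Mrps25. The largest were those of Mrpl27 at 1.00, Mrpl33 at 0.57, Mrpl23 at 0.54, Mrps10 at 0.54 and Mrps12 at 0.32. Over the 12 libraries, 47 of the 78 genes ranged over less than 1.5-fold and 11 over more than 2-fold.

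With the group means removed, the genes rose and fell together only weakly from mouse to mouse. The median Pearson correlation over 3003 pairs was 0.24 across 12 libraries, beside 0.10 over pairs of all genes tested, and 70.8% of the pairs were above 0. Pairs within the small subunit had a median of 0.27, pairs within the large subunit 0.22 and pairs across subunits 0.26. The value rested on 1 library: without high-extinction male replicate 1, the one with the largest ribosomal RNA-derived share, the median was 0.05, the same as over all genes. The points share libraries and their scaling, so no p is given.

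The other genes of the pathway were examined from lists chosen by function. Among 13 factors of mitochondrial translation, Guf1, the mitochondrial counterpart of bacterial elongation factor 4, rose in low-extinction females in the authors' deposited table, by 0.32 on the log2 scale (standard error 0.07, 1.25-fold, DESeq2 adjusted p = 0.00626). Guf1 was at 16.4, 19.4 and 14.3 TPM in high-extinction females and 19.6, 22.8 and 21 TPM in low-extinction females. All of the latter were higher, which also held for 14.3% of all genes tested in females. Limma on the TPM gave Guf1 0.33 in females (adjusted p = 0.541). In males the authors' deposited table gave Guf1 0.23 (DESeq2 adjusted p = 0.272), and Gfm2, a recycling factor for the mitochondrial ribosome, 0.27 (DESeq2 adjusted p = 0.112). None of the other 12 factors was called. In either sex, the authors' deposited tables called 0 of 5 further proteins of the particle and 0 of 28 assembly factors. They also called 0 of 12 genes of mitochondrial DNA expression, 0 of 8 regulators of mitochondrial biogenesis and 0 of 20 genes for charging mitochondrial tRNAs. The last list held aminoacyl-tRNA synthetases of mitochondria together with Qrsl1, Gatb and Gatc. Over all genes with an adjusted p, those tables called 0.504% in males and 0.857% in females. At such shares, 0 calls say little of lists this short. Ptcd3, a pentatricopeptide protein of the small subunit, was at 41.9 TPM, and Dhx30, a helicase needed for assembly, at 54.3 TPM. The 15 mitochondrially encoded transcripts examined included messengers this ribosome translates. The authors' deposited tables gave an adjusted p for 11 of them in males and 9 in females and called 0. The medians over all 15 were 0.15 and -0.01. In males, 15 of 15 were above 0, against 47.8% of all genes, and 3 had an unadjusted DESeq2 p under 0.05, against 7.58%. In females, 7 of 15 were above 0, against 46.2%, and 0 had such a p, against 8.65%. The transcripts without an adjusted p in males had standard errors from 0.73 to 3.03 there. Mitochondrially encoded genes took 11.8% of the TPM in high-extinction male replicate 1 and 14.5% and 15.2% in the other high-extinction males. In low-extinction males their share was 14.6% to 15.1%. The part of high-extinction male replicate 1 in these male changes was not tested.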

How the data were processed

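The labels' protocols describe poly(A) selection of RNA from 12 hippocampi. Tools listed for the authors in the submitters' processing notes are StringTie 1.3.3b, HTSeq, DESeq2, Bowtie2 and TopHat2, and the genome versions are mm10 and GRCm38.p5; what each tool made, and whether strand was used, is not stated there. TPM (transcript abundance scaled to a fixed total per library) were deposited in a table for each sex, and a transcript that takes a large share lowers the others. Alternatives varied the pseudocount, filter, scaling and moderation and left out each mouse in turn. The authors also deposited DESeq2 tables with the mean normalized count (a signal averaged over libraries), the log2 fold change with its error, a test score and p-values before and after adjustment, per the file headers. The direction of the deposited fold change is not named. Across genes its correlation with the low-minus-high TPM change was -0.578 (males) and -0.463 (females), and 90 of 90 and 131 of 132 called genes at 1 TPM had the opposite sign, so it was multiplied by -1.

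Genes averaging 1 TPM or more were fitted on log2(TPM + 1) with limma 3.58.1 (trend, R 4.3.3), with Benjamini-Hochberg adjustment over all genes tested and a threshold of 0.05, within each sex and over both. A fold change on this scale understates that of low genes. The fit was tested on simulated data. The difference between the authors' changes used their standard errors. Within a sex, 3 against 3 mice cannot give a permutation p under 0.1. The sexes' tables were deposited apart, so changes were taken within each. No 2 libraries held identical values.

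Genes, lists and motifs were chosen with earlier results of these data known. Named were the 10 highest and 5 lowest genes, the 3 per direction with the smallest limma p in each contrast, the 5 with the largest gap between TPM and counts, the 5 most and least variable, paralogs, called pathway genes and up to 2 of the highest per list. Genes overlapping these, those with an unadjusted p under 0.05 in the authors' tables and those without overlap between groups were named after their values were seen. Positions are from GENCODE M21 on GRCm38 and promoters from RefSeq on GRCm38.p6. Protein sequences were not used here.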

Additional observations from a re-analysis of the deposited data

How the results depend on the processing

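No paired analysis was possible because the labels give no replicate numbers shared between groups. The count of called genes was 0 under every alternative in males, for the average and for the difference between the sexes, and in both of the authors' deposited tables, also at an adjusted p under 0.1. At that threshold the limma test in females would hold Mrpl33 (adjusted p = 0.0625). In females it was 1 with a pseudocount of 5, with a mean of at least 5 TPM, and with robust empirical Bayes moderation, and it ran from 0 to 1 when single mice were left out, being 1 without high-extinction female replicate 2. That gene was Mrpl33 each time, with limma adjusted p of 0.0478, 0.0439, 0.0463 and 0.0085 in that order and a change from 1.11 to 1.51. The other alternatives gave it a limma adjusted p from 0.0707 to 0.41. The male median over the 78 genes ran from -0.05 (without high-extinction male replicate 1) to 0.06 when single mice were left out. The median difference between the sexes over the 78 genes turned from -0.04 to 0.06 with median-of-ratios scaling and to 0.04 with quantile normalization. The median over all genes moved as well, from -0.09 to 0.00 with either. The median correlation between genes was 0.13 with ribosomal RNA-derived and mitochondrially encoded genes taken out, 0.05 with quantile normalization, and from 0.05 to 0.28 when single mice were left out, being 0.05 without high-extinction male replicate 1 (chosen after seeing the data). The male change of Mrpl23 reversed to 0.09 without high-extinction male replicate 2 and to 0.17 without low-extinction male replicate 2, in a range from -0.67 to 0.17; the cause was not tested. Over 30 changes of named genes, 530 of the recomputed values kept their direction and side of the threshold. Another 4, all of Mrpl33, crossed the threshold, and 2, both of Mrpl23, reversed. Such a count does not measure size: Mrpl27 in females went from 0.90 to 0.02 without high-extinction female replicate 3 and was counted as kept. TPM record no depth, and the mean normalized counts of 12.3 and 10.4 in the authors' deposited tables leave wide intervals for Mrpl53.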
